A study of Mus musculus with 12 samples.

Results

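Intermediate filaments give axons their calibre and mechanical strength, and the 6 genes described here encode the filament proteins of the peripheral neuron and 1 protein of its neighbours. The genes are Nefl, Nefm and Nefh (the neurofilament light, medium and heavy chains), Ina (alpha-internexin), Prph (peripherin) and Vim (vimentin). They were taken by gene symbol, and all 6 members were found among the 9112 genes of the table of the libraries labelled Cre+ and among the 14177 genes of the table of the libraries labelled Cre-. All 6 passed the filter on low values in both tables. Nefm, Nefh and Ina, 3 of the 6, were called higher in the HA pull-down than in the input of the libraries labelled Cre-, where 6.06% of all genes tested were. In the libraries labelled Cre+, 0 of the 6 members were called in either direction, where 7.67% of all genes tested were, so that a count of 0 among 6 is near that share.

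The RNA came from cultured dorsal root ganglion (DRG) neurons of RiboTag mice, which carry an HA-tagged copy of the ribosomal protein Rpl22 that is expressed only where Cre recombinase is active. All mice were males homozygous for the tag allele (Rpl22HA/HA). The libraries labelled Cre+ came from Runx3-Cre+ mice, in which the promoter of Runx3, a transcription factor of proprioceptive neurons, drives Cre, and those labelled Cre- from littermates without Cre, in which no tagged ribosomes are expected by design. Neurons of all ganglia were purified on Percoll, pooled from 5 mice per sample, cultured for 24 h and lysed. The HA pull-down was sequenced beside 10% of the lysate taken as input, with 3 libraries of each kind per genotype label and 12 libraries in all. The labels give an age of 3 to 6 months. If the labels hold, a pull-down from Cre- cultures measures what binds without the tag, and a value there is the background of the assay.

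Runx3 itself was used to check the labels. Its level in the pull-downs labelled Cre+ was 23.3, 2.19 and 11.6 CPM (counts per 1000000 after TMM normalization over all 12 libraries, the scale of all levels here). The Cre- pull-downs had 20.1, 34.8 and 49.9 CPM of it. The change from input to pull-down was 1.55 on the log2 scale (SE 0.86, FDR = 0.302) in the libraries labelled Cre+ and 3.52 (SE 0.43, FDR = 0.000466) in those labelled Cre-, and the difference between these enrichments did not pass the threshold (FDR = 0.297). The driver gene thus passed the test in the libraries labelled Cre-, which carry no Cre by label, and not in those labelled Cre+. Whether labels or counts were exchanged between the genotypes was not tested. All directions below refer to the labels as deposited. Each library had between 8886308 and 18633365 counts on the listed genes. In such bulk samples fewer cells of a type and less RNA per cell cannot be told apart.

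In mature axons the neurofilament chains co-assemble into heteropolymers, which need Nefl as the core subunit, while the long tails of Nefm and Nefh project sideways and are heavily phosphorylated. Ina and Prph can join these polymers, Ina mainly in central and Prph mainly in peripheral neurons. In the DRG, large myelinated neurons such as proprioceptors are known for high neurofilament content, whereas Prph is typical of small unmyelinated neurons. Vim is the filament protein of glia, fibroblasts and endothelial cells and also appears in immature and injured neurons.

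On GRCm38 (RefSeq), Nefl lies at chr14:68083863-68089095 on the plus strand and Nefm at chr14:68119545-68125004 on the minus strand. The ends of this pair are 30.4 kb apart, with 0 protein-coding genes between them. Nefh lies at chr11:4938754-4948064 on the minus strand, Ina at chr19:47014681-47025327, Prph at chr15:99053579-99058978 and Vim at chr2:13574311-13582826, the last 3 on the plus strand. The counts were made on a RefSeq annotation, in which Nefl and Nefm do not overlap. In GENCODE M21, used here for lengths, 1 transcript model of Nefm reaches into Nefl on the opposite strand and holds 32.8% of the exon bases of Nefl. The gene spans of Ina and Nt5c2 overlap in RefSeq as well, on opposite strands, and 14.1% of the exon bases of Ina are shared in GENCODE. Since strand is not named as part of the counting, reads in that stretch cannot be assigned to Ina with certainty.

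The pull-down is designed to recover transcripts through tagged ribosomes, so the bases around each start codon, where a ribosome begins to translate, are shown. They do not show ribosomes on these transcripts in any library, and in the Cre- pull-downs no tag is expected by label. They are the 12 bases before the start codon, the start codon in capitals and the 6 bases after it, on the coding strand, from the GENCODE M21 transcript whose RefSeq number the tables give.
Nefl: ccggccgccaccATGagttcg
Nefm: aaggcctccaagATGagctac
Nefh: cctgctccggccATGatgagc
Ina: gaccccggcaccATGagcttc
Prph: gccaagcgctgaATGccatct
Vim: accttcgaagccATGtctacc
The strongest start contexts of vertebrate genes are known to carry A or G at the base 3 before the start codon and G right after it. Nefl, Nefm and Ina carry A at the first of these positions and Nefh and Vim carry G, as A or G stand there in 84.0% of 20535 coding genes. Prph has T there. The base right after the start codon was G in 0 of the 6 genes, against 49.3% of all coding genes. The transcripts of Nefl, Nefm and Nefh code for 543, 848 and 1090 residues, and those of Ina, Prph and Vim for 501, 507 and 466.

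Transcripts of Nefl, Nefm and Nefh were among the most abundant in these libraries. Ranked by the mean of the 12 libraries, Nefl was the third and Nefm the fourth of 9006 genes, Nefh was 41, Prph 356, Vim 983 and Ina 3967. These ranks are on counts, which grow with transcript length, and pool 4 groups: the mean level of Nefm was above that of Nefl in the Cre- pull-downs and below it in the other 3. Together the 6 genes took 1.61% to 1.90% of the counts in the Cre+ inputs and 1.79% to 2.11% in the Cre- inputs. They took 1.34% to 1.68% in the Cre+ pull-downs and 3.11% to 3.58% in the Cre- pull-downs, so that the Cre- pull-downs were above every other library.

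Per kilobase of exon, the Cre+ inputs held 2454 ± 286 CPM (SD, n = 3) of Nefl, 992 ± 75.6 of Nefm and 277 ± 9.68 of Nefh. Prph was at 241 ± 35.3, Vim at 45.3 ± 4.36 and Ina at 6.85 ± 1.21 on the same scale. The Cre- inputs gave the same order, from 2507 ± 221 for Nefl to 8.20 ± 0.557 for Ina, and Nefh (308 ± 14.4) was again followed by Prph (229 ± 21.7). In the Cre+ inputs the ranges of Nefh and Prph overlapped once each is taken with its SD, and all other neighbours were further apart than their SDs. The exon union of Nefm (5782 bases) is longer than its RefSeq transcript (3334 bases), and that of Vim (4743 bases) than its own (2193 bases), so the per-length levels of both are lower than they would be on the shorter length.

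The light chain Nefl is the subunit on which neurofilaments are built. Its level was 9289, 8238 and 7355 CPM in the Cre+ inputs and 7740, 8882 and 8797 in the Cre+ pull-downs. Those groups overlapped, and the log2 fold change from input to pull-down was 0.02 (SE 0.23, FDR = 0.961). In the Cre- libraries the level was 9329, 8128 and 7961 in the inputs and 13333, 15971 and 17125 in the pull-downs. Every Cre- pull-down was above every input. The log2 fold change was 0.89 (SE 0.13, FDR = 0.0014), which passed the FDR threshold but stayed under the 2-fold limit that a call needs. Without Cre- pull-down 1 it reached 1.01 and was called.

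The medium chain Nefm carries a phosphorylated tail and contributes to axon calibre. It had 5960, 6020 and 5234 CPM in the Cre+ inputs and 6894, 8359 and 8635 in the Cre+ pull-downs. All Cre+ pull-downs were above all Cre+ inputs, but the log2 fold change of 0.47 (SE 0.23, FDR = 0.247) was not called. In the Cre- libraries the inputs had 7897, 6419 and 6507 and the pull-downs 14304, 17918 and 17745. Nefm rose in the Cre- pull-down by a log2 fold change of 1.29 (SE 0.14, FDR = 0.000238), or 2.44-fold, and the groups did not overlap.

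The heavy chain Nefh has the longest tail and marks large myelinated neurons in the DRG. Its level was 1099, 1150 and 1074 in the Cre+ inputs and 1932, 1361 and 1602 in the Cre+ pull-downs. Here too every Cre+ pull-down was above every input, with Cre+ pull-down 1 the highest, and the log2 fold change of 0.56 (SE 0.24, FDR = 0.205) was not called. In the Cre- libraries the level was 1291, 1218 and 1177 in the inputs and 2991, 3225 and 3032 in the pull-downs. Nefh rose there by 1.35 (SE 0.12, FDR = 0.000118) on the log2 scale, or 2.55-fold. The Cre- pull-downs spread by 125 (SD) around a mean of 3083, the smallest relative spread of the 6 members in that group.

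Ina, the neuronal filament protein of central axons, was the rarest member. It had 26.6, 21.0 and 19.0 CPM in the Cre+ inputs and 30.9, 28.7 and 22.5 in the Cre+ pull-downs, from 186 to 312 counts per library. These groups overlapped, and the log2 fold change was 0.30 (SE 0.52, FDR = 0.764). The Cre- inputs had 28.6, 25.7 and 25.4, and the Cre- pull-downs 121, 95.0 and 66.8, the last from 2237, 1453 and 926 counts. Ina rose in the Cre- pull-down by a log2 fold change of 1.85 (SE 0.24, FDR = 0.000543), or 3.61-fold, more than 98.5% of the genes tested. Its 3 Cre- pull-downs lay far apart from each other, but all of them lay above all inputs.

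Prph is the filament protein of small peripheral neurons. Its level was 561, 455 and 427 in the Cre+ inputs and 466, 379 and 261 in the Cre+ pull-downs. The log2 fold change was -0.39 (SE 0.29, FDR = 0.439), and the groups overlapped. In the Cre- libraries the inputs had 467, 495 and 410 and the pull-downs 435, 386 and 331. That gave -0.23 (SE 0.16, FDR = 0.353), again with overlap, and neither value was called. With library-size scaling Prph was at -0.84 (FDR = 0.113) in Cre+ and -0.46 (FDR = 0.0687) in Cre-, under 2-fold. That scaling moved the median of all genes by -0.44 and -0.23.

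Vim had 218, 234 and 193 CPM in the Cre+ inputs and 396, 183 and 97.8 in the Cre+ pull-downs. The Cre+ pull-downs spanned the inputs on both sides, and the log2 fold change of 0.07 (SE 0.46, FDR = 0.938) turned to -0.60 (FDR = 0.232) without Cre+ pull-down 1. In the Cre- libraries the inputs had 193, 223 and 228 and the pull-downs 188, 70.5 and 88.7. All Cre- pull-downs were below all inputs, the first by a small margin. The log2 fold change was -0.86 (SE 0.30, FDR = 0.0758), which passed the FDR threshold and not the fold limit, and in a fit of all 12 libraries the FDR was 0.332. Without Cre- pull-down 1 Vim fell by 1.39 on the log2 scale (FDR = 7.69e-05) and was called, and without any 1 of the other 5 Cre- libraries its FDR was above 0.1, from 0.127 to 0.228.

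**Figure D1:**
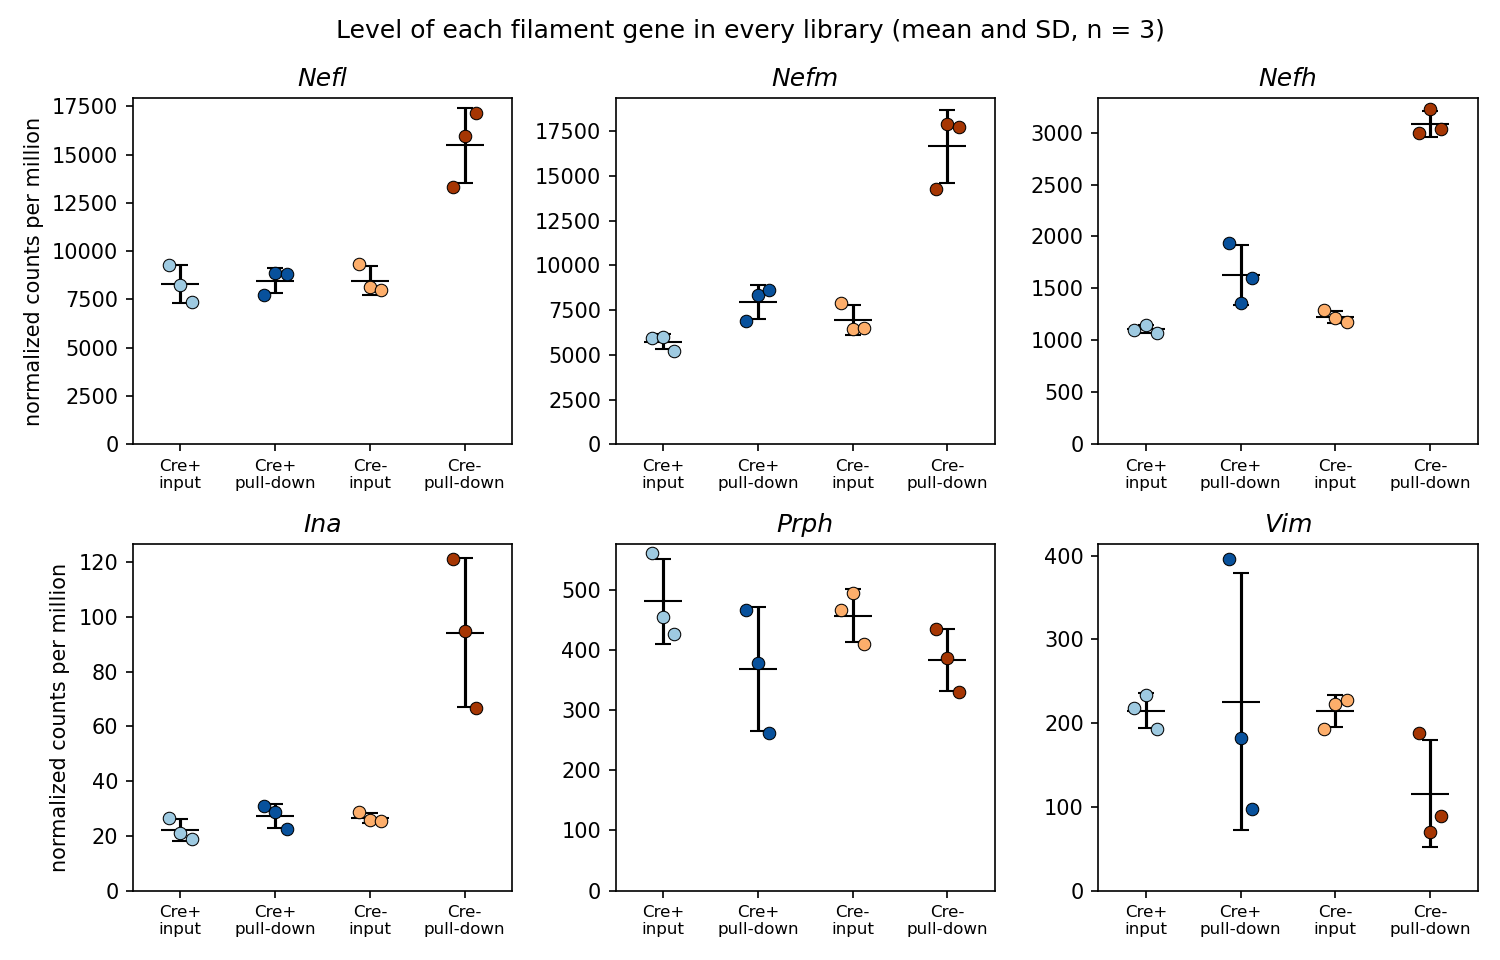
Level of each filament gene in CPM (vertical axis, from 0) in the 4 groups, with 1 point per library and the mean and SD of 3 libraries. The Cre- pull-downs of Nefl, Nefm, Nefh and Ina lie above all other libraries, those of Prph lie among them, and Vim in the Cre+ pull-downs runs from 97.8 to 396.

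Of the 6 members, 0 were called in either direction in the libraries labelled Cre+, where 7.67% of 8947 genes were called. That share depended on single libraries, with 0 genes called without any 1 Cre+ input and 1390 without Cre+ pull-down 1. At an unadjusted p under 0.05 there was 1 member, Nefh (p = 0.0471, edgeR's quasi-likelihood test), against 23.7% of all genes, and DESeq2 and edgeR's exact test also called 0 of the 6. In a fit of all 12 libraries, Nefh (0.56, FDR = 0.0297) and Nefm (0.47, FDR = 0.0518) passed the FDR threshold in Cre+, under 2-fold. In the libraries labelled Cre-, 3 of the 6 were called higher, against 6.06% of 11526 genes, and 0 were called lower, against 5.93%. With library-size scaling Vim was also called lower there (-1.08, FDR = 0.0384), and the genes called in Cre- were 433 higher and 1249 lower, in place of 698 and 684. At FDR below 0.1 with no fold limit, 4 of the 6 were higher there (13.0% of all genes) and 1, Vim, was lower (11.1%). The pull-downs were all above the inputs for 2 of the 6 members in Cre+ (15.5% of all genes) and for 4 of the 6 in Cre- (18.2%). The median log2 fold change of all genes tested was 0.08 in Cre+ and -0.04 in Cre-. Nefm, Nefh and Ina were called in Cre- under each of the 16 alternatives tried, leaving out any 1 library included.

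**Figure D2:**
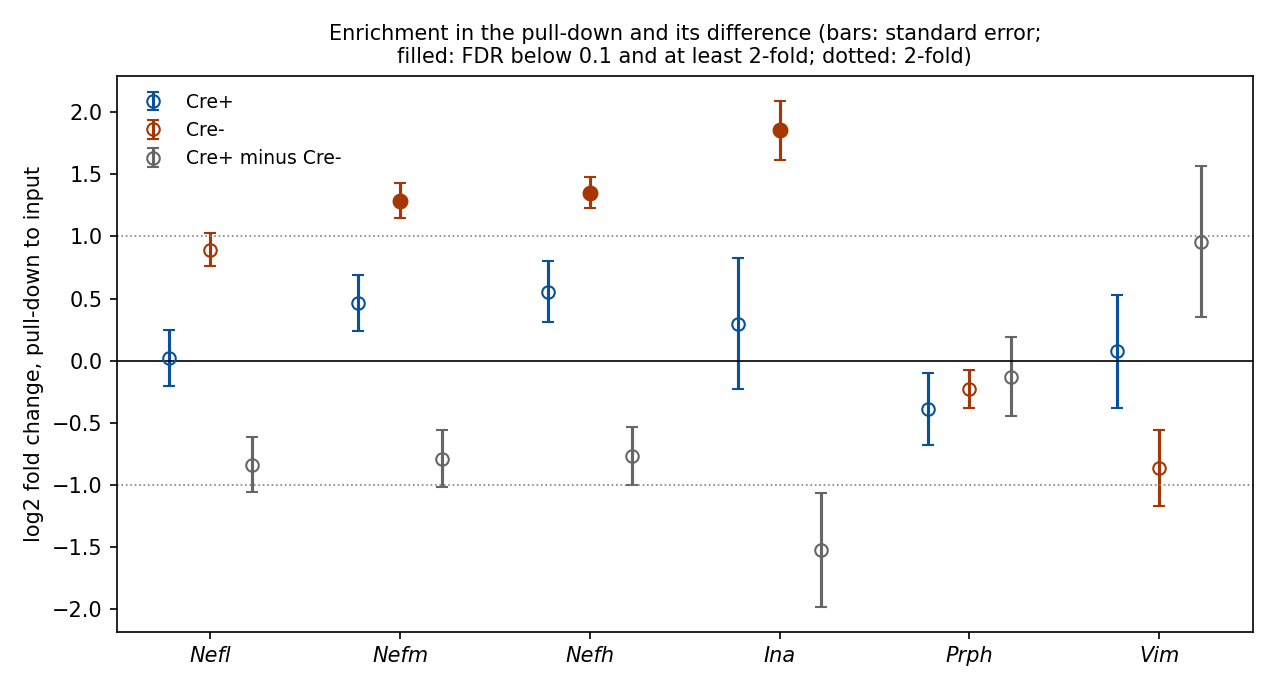
Log2 fold change from input to pull-down for each member in the libraries labelled Cre+ and Cre-, and the difference of both (vertical axis), with standard errors. Filled points passed FDR below 0.1 and the 2-fold limit, which Nefm, Nefh and Ina did in Cre- (1.29, 1.35 and 1.85), while 0 points are filled for Cre+ or for the difference.

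Whether the enrichment differed between the genotype labels was tested as the difference of both log2 fold changes in a fit of all 12 libraries. Nefl was less enriched in Cre+ by 0.84 on the log2 scale (difference -0.84, SE 0.22, FDR = 0.0775) and Nefm by 0.79 (difference -0.79, SE 0.23, FDR = 0.0969). Both passed FDR 0.1, as 2.08% of 9006 genes did in that direction, and neither reached 2-fold. The differences of Nefh (-0.77, SE 0.23, FDR = 0.106) and Ina (-1.52, SE 0.46, FDR = 0.103) just missed the FDR threshold. Prph (-0.13, SE 0.32, FDR = 0.851) and Vim (0.96, SE 0.61, FDR = 0.402) were further from it. With the fold limit 0 of the 6 were called, where 4.22% of all genes were, and DESeq2 called 1 of them, Ina. Upper-quartile scaling called Nefl and Ina, and library-size scaling called Nefl, Nefm, Nefh and Ina. These scalings moved the median difference of all genes by -0.18 and -0.24. Relative to that median the members hardly moved. In the main analysis and with these scalings, Nefl was at -0.97, -0.96 and -0.95 and Nefm at -0.92, -0.91 and -0.90. Nefh was at -0.90, -0.91 and -0.90 and Ina at -1.65, -1.66 and -1.66.

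Whether the difference passed the FDR threshold depended on single libraries. For Nefl and for Nefm the FDR was below 0.1 without any 1 of the 3 Cre+ pull-downs or without Cre- pull-down 1, and it was above 0.1 without any 1 of the other 8 libraries, up to 0.216 for Nefl and 0.253 for Nefm. For Ina the difference was called without any 1 Cre+ pull-down (FDR = 0.0361, 0.0593 and 0.0819). For Nefh the FDR was below 0.1 in these 3 cases (0.0209, 0.0839 and 0.0944), under 2-fold, and up to 0.253 in the others. The FDR of Nefh was 0.0776 with DESeq2 and 0.0505 with upper-quartile scaling. Leaving out libraries moved the size of the difference less for Nefl (-0.95 to -0.75), Nefm (-0.90 to -0.70), Nefh (-0.91 to -0.65) and Ina (-1.72 to -1.32). For Vim it ran from 0.27 to 1.49 and for Prph from -0.34 to 0.066, with each FDR above 0.1.

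Compared directly, the Cre+ pull-downs held less of the neurofilament transcripts than the Cre- pull-downs. Nefm was lower by a log2 fold change of -1.06 (SE 0.16, FDR = 0.00222) and Ina by -1.78 (SE 0.33, FDR = 0.00599), and these 2 of the 6 members were called lower, against 7.17% of all genes. Nefl (-0.87, SE 0.16, FDR = 0.00549) and Nefh (-0.92, SE 0.17, FDR = 0.0054) passed the FDR threshold without reaching 2-fold, so that 4 of the 6 passed it, against 9.56% of all genes. With edgeR's exact test Nefl missed it (FDR = 0.104). For these 4 members every Cre+ pull-down lay below every Cre- pull-down, as it did for 15.0% of all genes. Prph (-0.06, SE 0.23, FDR = 0.879) and Vim (0.96, SE 0.43, FDR = 0.146) were not called, with overlapping libraries. Vim was called by DESeq2 (1.03, FDR = 0.0845), without Cre+ pull-down 3 (1.32, FDR = 0.0343) and without Cre- pull-down 1 (1.49, FDR = 0.0552), and it was at 0.27 (FDR = 0.608) without Cre+ pull-down 1. Without Cre+ pull-down 1 the value of Nefm was -0.97 and no longer 2-fold, and that of Nefh was -1.06 and called.

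Neuron markers moved in the same comparison of pull-downs. Of 8 pan-neuronal genes, 4 were called lower in the Cre+ pull-downs, against 7.17% of all genes. They were Snap25 at -1.70, Uchl1 at -1.57, Isl1 at -1.29 and Stmn2 at -1.07. The median of the 8 genes was -0.87, with Rbfox3 at 0.74 (FDR = 0.0213). Their summed level was 5978 to 7426 CPM in the Cre+ pull-downs and 18044 to 18660 in the Cre- pull-downs, without overlap. Of 7 markers of large-diameter sensory neurons, 2 were called lower (Spp1 at -3.33 and Etv1 at -2.78), with a median of -0.86 and Ntrk2 at 0.85. Of 9 markers of small-diameter neurons, 5 were called higher, against 10.9% of all genes, with a median of 1.13. The part of these markers in the values of the filament genes was not tested.

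The inputs of both labels showed 0 calls among the 6 members and 0 among all 9006 genes (0%, edgeR's quasi-likelihood test). At an unadjusted p under 0.05 there were 20 genes and 0 members, and edgeR's exact test called 1 gene, not a member. The log2 fold changes of Cre+ to Cre- input ranged from -0.27 for Nefm (SE 0.16) to 0.07 for Prph (SE 0.22). For 2 members, Nefm and Nefh, every Cre+ input was below every Cre- input, as for 3.98% of all genes. The contrasts of this design share libraries, so that the values of 1 gene in several of them are not independent.

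Shares within a library do not depend on the scaling between libraries. Each member's share in the sum of the 6 genes' counts per kilobase was therefore compared between pull-down and input. The shares of a library are tied to each other, so a lower share is not by itself a lower level. In Cre- the share of Nefl was lower in the pull-down although its level was higher. The share of Nefl was 62.6%, 60.2% and 60.3% in the Cre+ inputs and 53.3%, 56.5% and 55.9% in the Cre+ pull-downs. It was 58.3%, 58.3% and 58.4% in the Cre- inputs and 52.9%, 53.3% and 55.7% in the Cre- pull-downs. In both genotypes all pull-downs were lower than all inputs.

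The share of Nefm ran the other way, from a mean of 24.8% ± 1.14 (SD, n = 3) in the input to 30.3% ± 2.25 in the pull-down in Cre+ and from 27.9% ± 0.966 to 33.9% ± 0.913 in Cre-, without overlap. Nefh went from 6.94% ± 0.607 to 9.07% ± 2.01 in Cre+ and from 7.18% ± 0.303 to 9.16% ± 0.849 in Cre-. The share of Prph was lower in the pull-down, 5.98% ± 0.390 against 4.10% ± 1.31 in Cre+ and 5.34% ± 0.584 against 2.30% ± 0.558 in Cre-. Vim had 1.13% ± 0.0842 in the input and 1.07% ± 0.781 in the pull-down of Cre+, and 1.06% ± 0.178 and 0.302% ± 0.201 in Cre-. Ina went from 0.170% ± 0.0147 to 0.187% ± 0.0367 in Cre+ and from 0.191% ± 0.00377 to 0.353% ± 0.138 in Cre-.

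By the exact permutation test over samples (two-sided, 3 against 3, in which 0.1 is the smallest p possible), p was 0.1 for Nefl, Nefm and Prph in Cre+ and for all 6 genes in Cre-. It was 0.2 for Nefh, 0.6 for Ina and 1 for Vim in Cre+. With 3 libraries against 3, none of these 12 comparisons can pass 0.05. With the length of the RefSeq transcript in place of the exon union, chosen after the lengths were seen, Nefm held 35.8% ± 1.39 of the Cre+ input and 46.9% ± 1.09 of the Cre- pull-down, and Nefl 50.9% ± 1.53 and 43.0% ± 1.29. On that length Nefm was above Nefl in the Cre- pull-down, whereas with the exon union Nefl was the most abundant member in every library.

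**Figure D3:**
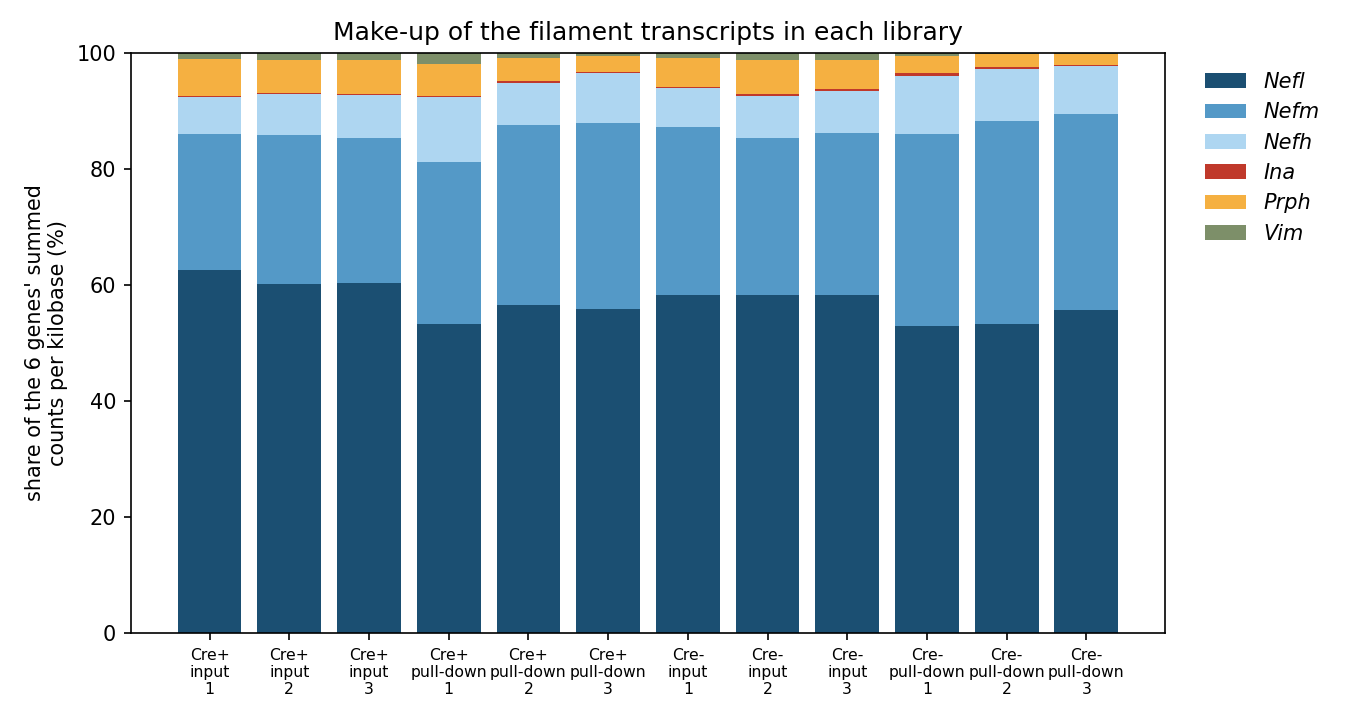
Share of each member in the summed counts per kilobase of exon of the 6 genes (vertical axis, percent), with 1 stacked bar for each of the 12 libraries. Nefl makes up 52.9% to 55.7% of the Cre- pull-downs and 58.3% to 58.4% of the Cre- inputs, and the Prph band is thinner in the pull-downs.

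Markers of neuron types were compared beside these genes. In Cre-, 6 of 8 tested markers of large-diameter sensory neurons were called higher in the pull-down, against 6.06% of all genes. The median log2 fold change of the 8 was 2.68. Among the 6 were Pvalb (2.98, a calcium-binding protein of proprioceptors), Etv1 (2.69, a transcription factor they need) and Ntrk3 (2.05, the neurotrophin-3 receptor). Calb1 (-0.96) and Ntrk2 (-0.15) were not called. In Cre+, 1 of 7 was called higher, Ntrk3 at 2.19, against 5.17% of all genes. The other 6 were Whrn at 1.67, Runx3 at 1.55, Ntrk2 at 0.29, Etv1 at 0.24, Spp1 at -0.95 and Calb1 at -1.93, and the median was 0.29. The summed level of the 7 genes in both tables was 254 to 319 in the Cre- inputs, 1224 to 1467 in the Cre- pull-downs, 257 to 331 in the Cre+ inputs and 480 to 585 in the Cre+ pull-downs.

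Of 10 markers of small-diameter neurons, 4 were called lower in the Cre- pull-down (Calca, P2rx3 and Tac1 among them), against 5.93% of all genes. Their median was -1.10. Of the 9 tested in Cre+, with a median of 0.09, 1 was called lower (Calca), against 2.49% of all genes. Their summed level was 1630 to 2414 in the Cre- pull-downs against 3218 to 3488 in the inputs, and 2917 to 4125 against 3454 to 3774 in Cre+. Of 8 pan-neuronal genes, 1 was called higher in Cre- (Snap25, 1.17), against 6.06% of all genes, with a median of 0.12. Rbfox3 was at -0.76 there (FDR = 0.00583), under the fold limit. In Cre+, 3 of the 8 were called lower (Uchl1 at -1.85, Stmn2 at -1.21 and Tubb3 at -1.19), against 2.49% of all genes, with a median of -0.40 and Rbfox3 at 0.22. The difference in enrichment was called lower for 3 of the 8 (Uchl1, Snap25 and Stmn2) and higher for Rbfox3 (1.01, FDR = 0.0734). Their median difference was -0.97, and 4.22% of all genes were called in either direction. For 7 large-diameter markers the median was -1.65, with 2 called lower (Spp1 at -3.60 and Etv1 at -2.41) and Ntrk2 at 0.48. All 9 small-diameter markers had a positive difference, with a median of 0.90 and 0 called. The median difference of all genes was itself above 0, at 0.13. The 8 pan-neuronal genes had counts above 0 in every Cre- library. The genes listed for Cre+ all had at least 5 counts in each library, so a count of 0 was not possible there. Pvalb and Trpv1 were not among the genes listed for Cre+.

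Non-neuronal markers were compared beside Vim. The summed level of 5 of the 8 fibroblast genes was 271, 163 and 92.6 in the Cre+ pull-downs and 111, 32.8 and 32.7 in the Cre- pull-downs. The libraries rank in nearly the same way for Vim, with library 1 highest in both pull-down groups. The sum of 3 of the 4 endothelial genes was 390, 102 and 106 in the Cre+ pull-downs and 109, 14.8 and 15.0 in the Cre- pull-downs, against 47.8 to 87.0 in all inputs.

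The sum of 7 of the 12 satellite glia and Schwann cell genes was 1902, 2067 and 2851 in the Cre+ pull-downs, the reverse of the order of Vim there. It was 1969, 1595 and 1924 in the Cre- pull-downs, the same order as Vim, and 3007 to 4595 in the inputs. Of 9 glial genes tested in Cre-, 3 were called lower in the pull-down (Pmp22, Apoe and Fabp7), against 5.93% of all genes. There S100b was at 0.69 (FDR = 0.0143) and Glul at 0.02. In Cre+, 0 of 7 were called, against 7.67% of all genes. Fabp7 had a count of 0 in at least 1 Cre- pull-down. Of 5 fibroblast genes tested in Cre+, 1 was called higher, against 5.17% of all genes. This was Fn1, which encodes fibronectin (3.05, SE 0.85, FDR = 0.0883), while Dcn was at -0.56 and Pdgfra at -1.16. Of 6 tested in Cre-, 1 was called lower, Col1a1 (-1.34, FDR = 0.0387), against 5.93% of all genes. Of the 7 macrophage genes, 2 were in both tables, and their summed level was highest in library 1 of each pull-down group (115 in Cre+ and 53.9 in Cre-). It was also highest in input 1 of each genotype (70.8 in Cre+ and 115 in Cre-), and Cre- input 1 had the least Vim of the Cre- inputs (193). The part of these cells in the level of Vim was not tested.

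**Figure D4:**
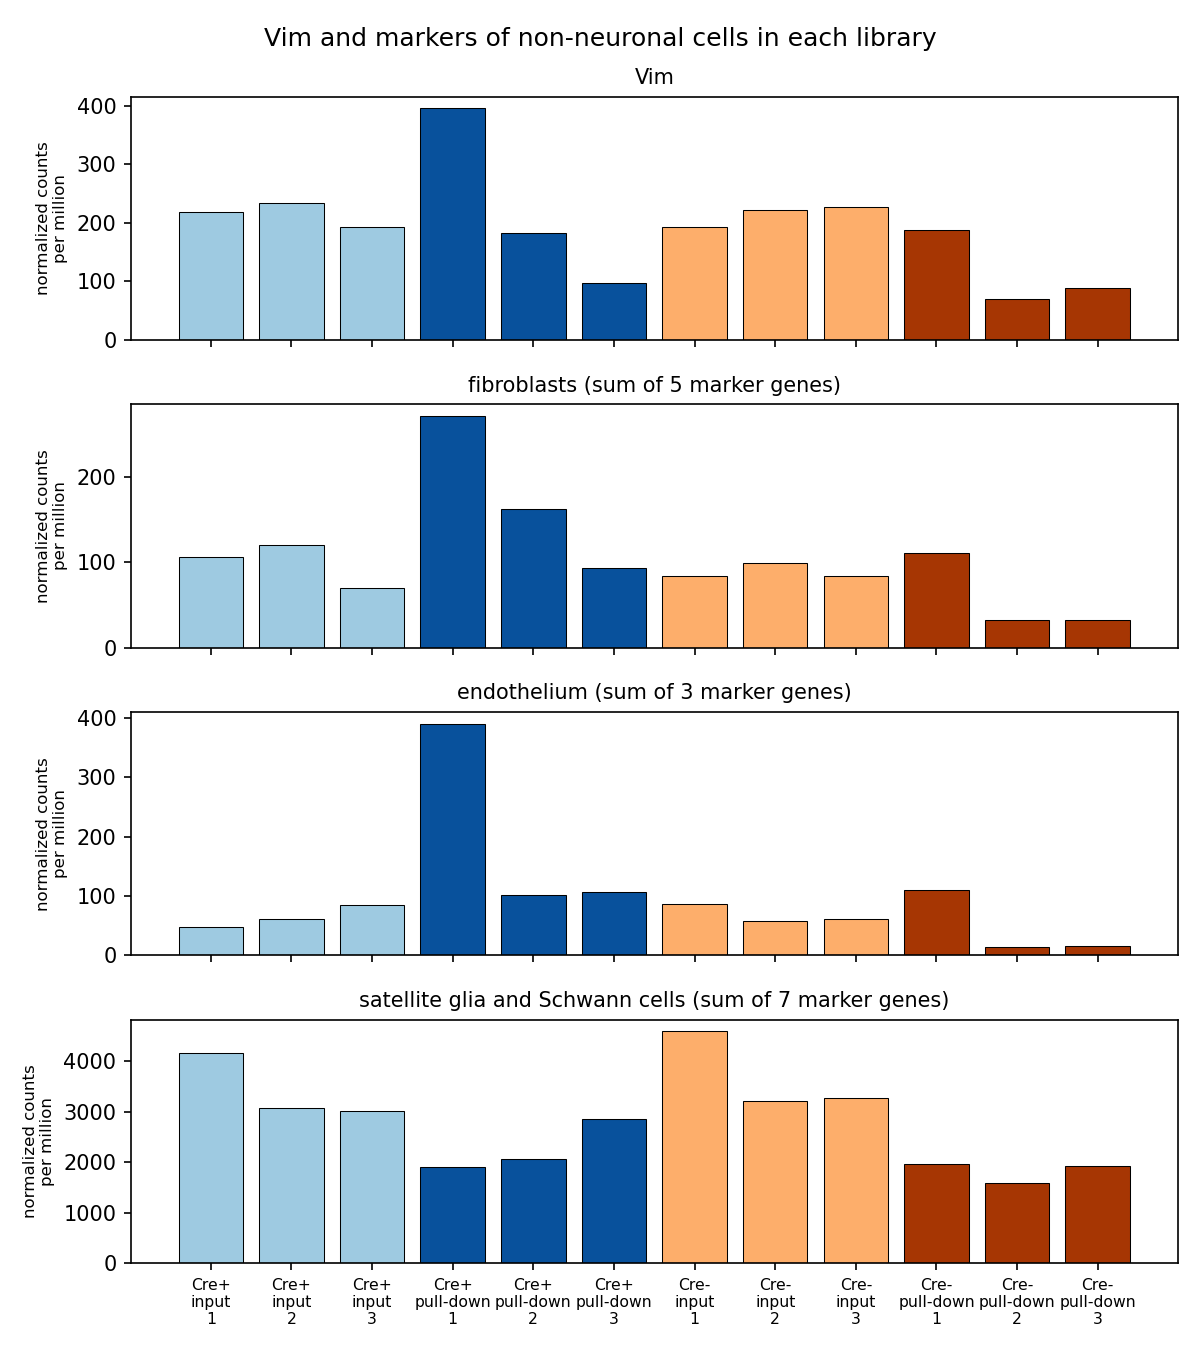
Level of Vim and summed levels of fibroblast, endothelial and glial marker genes (vertical axes, CPM, from 0) in each of the 12 libraries. Cre+ pull-down 1 is the highest library for Vim (396), fibroblast (271) and endothelial genes (390), and not for glial genes (1902).

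Fold changes also moved with the length of the transcript. Across the genes tested, which are not independent replicates, Spearman's rho between the log2 fold change and the length of the exon union was 0.46 in Cre+ (8898 genes) and 0.32 in Cre- (11460 genes). The genes of 1900 to 5800 bases, the range that holds the 6 members, had a median log2 fold change of -0.20 in Cre+ and -0.13 in Cre-. Nefl, Nefm, Nefh and Ina were above that median in both genotypes. The part of length in their values was not tested.

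The genes that link, move, modify and degrade filaments were described next. This list and the others were chosen with earlier results of these data known. Of 9 genes for linkers and transport, 5 were called higher in Cre+ (median 2.20), against 5.17% of all genes, and 5 in Cre- (median 1.16), against 6.06%, and 0 were called lower in either. They were Macf1, Dst and Plec, giant cross-linkers between filaments, microtubules and actin, Dync1h1, the heavy chain of the retrograde motor dynein, and Myo5a, a myosin that binds neurofilaments. Macf1 had a log2 fold change of 2.87 (SE 0.47, FDR = 0.0333) in Cre+ and 1.49 (SE 0.19, FDR = 0.000543) in Cre-. Plec had 2.72 (SE 0.39, FDR = 0.0269) and 1.16 (SE 0.22, FDR = 0.00482), and its difference of 1.59 was called (SE 0.45, FDR = 0.0925), in the direction opposite to that of Nefl and Nefm. The kinesin heavy chain Kif5a, which carries neurofilaments along axons, had 0.74 (FDR = 0.167) in Cre+ and 0.86 (FDR = 0.00266) in Cre-, under 2-fold in both. Across all genes, fold changes rose with the length of the exon union (Spearman's rho 0.46 in Cre+ and 0.32 in Cre-). The part of length in the calls of this list was not tested either.

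The next list held 14 genes for kinases, a phosphatase, an isomerase and a glycosyltransferase that act on neurofilament proteins. Of these, 1 was called higher in Cre+ and 0 in Cre-, and 0 were called lower in either. These counts are near the shares of all genes called higher (5.17% in Cre+ and 6.06% in Cre-) and lower (2.49% and 5.93%). The gene called in Cre+ was Rock1, a serine/threonine kinase, at 1.50 (SE 0.44, FDR = 0.0978). Rock1 was at -0.36 (SE 0.24, FDR = 0.337) in Cre-, and its difference was called (1.88, SE 0.49, FDR = 0.0767). Cdk5, the main kinase of the Nefh tail, had -1.47 (SE 0.62, FDR = 0.192) in Cre+ and 0.03 (SE 0.22, FDR = 0.939) in Cre-. The median of the list was -0.08 in Cre+ and 0.24 in Cre-.

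Of 5 genes for turnover and folding, 0 were called in Cre+ (median -0.85), against 7.67% of all genes. In Cre- 1 was called lower, against 5.93% of all genes. This was Cryab, a small heat shock protein that binds filaments (-1.18, SE 0.38, FDR = 0.053). Of 4 genes whose products are reported to bind the Nefl transcript, 1 was called lower in Cre+, against 2.49% of all genes. This was Sod1 (-1.63, SE 0.36, FDR = 0.058), and 0 of the 4 were called in Cre-.

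Of 16 other intermediate filament genes, 4 were in the Cre+ table, 8 in the Cre- table and 8 in neither, Gfap and Des among the latter. Of the 4 tested in Cre+ and the 6 tested in Cre-, 1 was called higher in each, against 5.17% and 6.06% of all genes. In either genotype 0 were called lower. The gene called in both was Synm, which encodes synemin, a large filament protein that co-assembles with vimentin. It was higher by 1.17 (SE 0.32, FDR = 0.0862) in Cre+ and 1.42 (SE 0.19, FDR = 0.000776) in Cre-. Nes, the nestin gene of progenitors and endothelium, had 1.86 (SE 0.67, FDR = 0.141) in Cre+ and -0.68 (SE 0.60, FDR = 0.478) in Cre-. The lamin gene Lmna had -1.51 (SE 0.53, FDR = 0.132) and -0.21 (SE 0.30, FDR = 0.683).

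**Figure D5:**
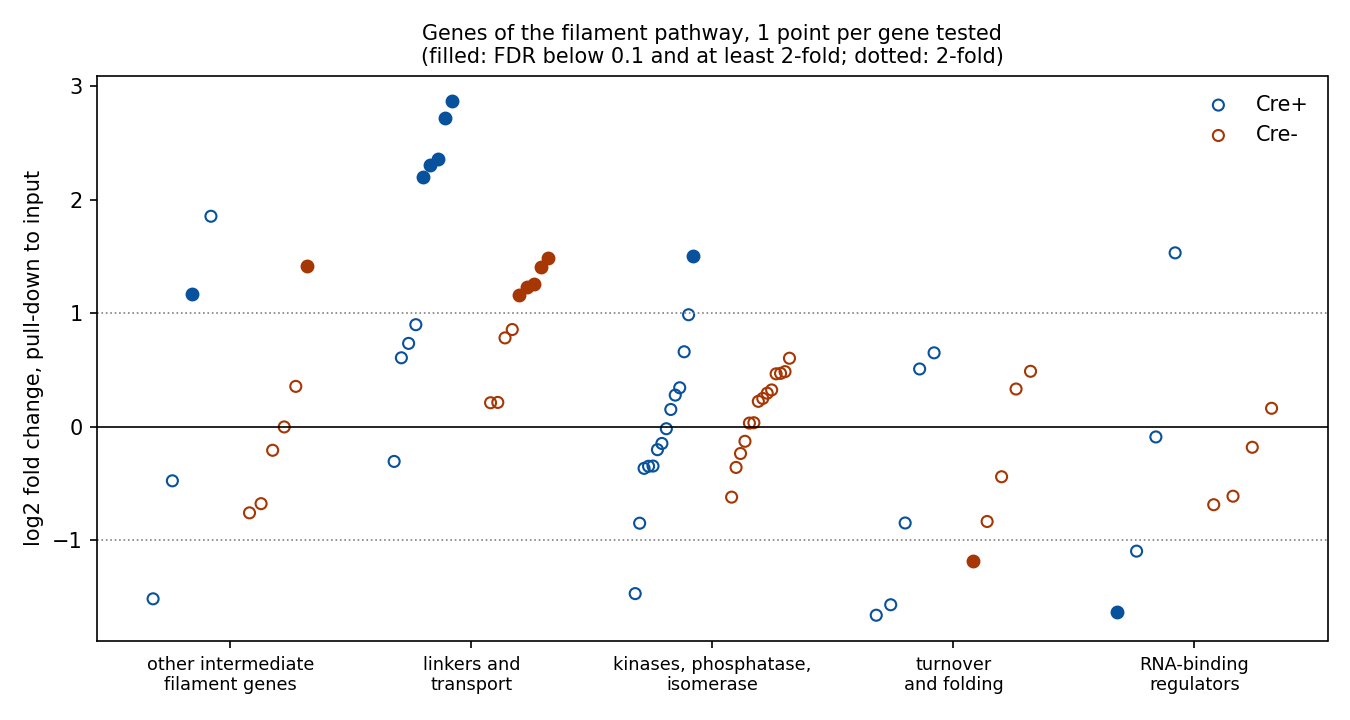
Log2 fold change from input to pull-down (vertical axis) for the tested genes of 5 lists, with 1 point per gene in the libraries labelled Cre+ and Cre-. Filled points were called, which in the list of linkers and transport are 5 genes in each genotype, at 2.20 to 2.87 in Cre+ and 1.16 to 1.49 in Cre-.

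Among the members themselves, the centred log2 levels of Nefl, Nefm and Nefh correlated over the 12 libraries with r of 0.88 to 0.96, and each correlated with Ina at 0.89 to 0.92. Against these 3 chains, r was -0.46 to -0.30 for Prph and -0.73 to -0.56 for Vim, and Prph and Vim gave 0.68 with each other. These values describe 12 libraries of 4 groups, which share group differences. Among 9006 genes, the 5 most like the mean of Nefl, Nefm and Nefh were A230070E04Rik (r = 0.985), Hspa12a (0.978), Pak1 (0.969), Lancl3 (0.968) and Etv1 (0.967). The 5 most like Ina were Lrrfip1 (0.946), Etv1 (0.946), Kif3a (0.928), Faim2 (0.928) and Nefh (0.922). For Prph they were Ift122 (0.935), Parvb (0.931), Pttg1 (0.925), Ap3b1 (0.924) and Grik1 (0.921), and for Vim Thbd (0.969), Egr2 (0.966), Axl (0.937), Elk3 (0.932) and Cxcr4 (0.927).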

How the data were processed

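The authors aligned reads to mm10 with STAR and deposited, for each genotype, whole-number counts per gene (HTSeq, refFlat annotation), with the mean FPKM over the libraries of a table, used here as a filter (above 1). Their fold changes, p-values and FDR and a further 18 per-sample columns were not used. Samples were grouped by their labels. The names of the Cre+ pull-down columns equal, apart from punctuation, the titles of Cre- pull-downs, and were assigned by the table the labels name, as a group. Their numbers only tell libraries apart.

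Counts were scaled by TMM and tested with edgeR 4.0.16 (quasi-likelihood, R 4.3.3), and genes were called at FDR (Benjamini-Hochberg over all genes tested) below 0.1 and a 2-fold change. Levels are CPM, counts per 1000000 after TMM over 12 libraries, computed here. SE is the size of the log2 fold change over the square root of F. The scripts were tested on simulated data. Alternatives were DESeq2 1.42.0, edgeR's exact test, at least 10 counts in 3 libraries, no filter, upper-quartile and library-size scaling, an FDR of 0.05, no fold limit, 1 fit of 12 libraries, a replicate block and each library left out. Lengths came from GENCODE M21. The members and lists were chosen with earlier results of these data known. Named were the members, Runx3, Rpl22, Nt5c2 and genes of the lists. Also named were the 5 genes most like Ina, Prph, Vim and the mean of Nefl, Nefm and Nefh. Some genes of the lists are not reported here by name. It is not stated that the libraries of a group came from separate cultures on separate days, so p-values measure the spread between these samples. The reads carry no molecular identifiers, so PCR copies of 1 molecule were counted as several. Figures were drawn with matplotlib 3.10.9.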

Additional observations from a re-analysis of the deposited data

Results flagged for a closer look

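The enrichment of Nefl in the pull-down differed between the genotype labels, by a log2 difference of -0.84 (Cre+ minus Cre-, SE 0.22, FDR = 0.0775, edgeR's interaction test over 12 libraries). Nefl was higher in 3 of 3 Cre- pull-downs than in any Cre- input, and the Cre+ groups overlapped. Neuron markers moved in the same contrast, with medians of -0.97 for pan-neuronal, -1.65 for large-diameter and 0.90 for small-diameter genes. The median of all genes was 0.13.

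The enrichment of Nefm differed likewise, by -0.79 (SE 0.23, FDR = 0.0969). All 3 pull-downs of either genotype lay above the inputs of that genotype, at 14304 to 17918 CPM in Cre- and 6894 to 8635 in Cre+. Both differences were under 2-fold, so neither was called. When 1 library was left out, the FDR of each was below 0.1 in 4 of 12 fits. It rose to 0.216 for Nefl and 0.253 for Nefm.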

How the results depend on the processing

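Nefm, Nefh and Ina were called higher in Cre- under every alternative, and 0 members were called in Cre+ under any. With no fold limit 5 members were called in Cre-, 2 for the difference and 4 between the pull-downs, and the genes called in Cre- were 2772. DESeq2 called 1671 genes in Cre+ and 1042 for the difference, with 1 member for the difference, Ina, and added Vim between the pull-downs. An FDR of 0.05 left 146 genes in Cre+, 91 for the difference and 1049 between the pull-downs. edgeR's exact test called 1243 in Cre+, 733 between the pull-downs and 1 between the inputs. A fit of all 12 libraries called 2215 in Cre+ and 439 in Cre-. These compare with 686, 1382, 380, 1627 and 0 in the order Cre+, Cre-, difference, pull-downs and inputs. The cause of these changes was not tested.

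Upper-quartile scaling called 2 members for the difference and 4 between the pull-downs, and library-size scaling 4 and 4. Upper-quartile and library-size scaling also moved the split of calls. In Cre+ it was 463 higher and 223 lower in the main analysis, 247 and 271 with the first and 195 and 713 with the second. For the difference it was 201 and 179, then 89 and 209, then 73 and 273, and between the pull-downs 981 and 646, then 637 and 878, then 557 and 1003. These scalings moved the median log2 fold change of all genes in Cre+ by -0.19 and -0.44, and in Cre- by -0.03 and -0.23. For the difference they moved the median by -0.18 and -0.24, and between the pull-downs by -0.17 and -0.23. In Cre+ the value of Nefl turned to -0.17 and -0.41, that of Vim to -0.18 and -0.41 and, with library-size scaling, that of Ina to -0.15. Relative to the median of all genes in Cre+, Nefl stayed at -0.05, Nefm at 0.39 and Ina between 0.21 and 0.22 there under each scaling.

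Leaving out 1 library gave 0 to 1390 calls in Cre+ (0 without any 1 Cre+ input), 1115 to 1882 in Cre-, 40 to 1423 for the difference and 700 to 2514 between the pull-downs. Members called were 3 to 5 in Cre- (5 without Cre- pull-down 1), 0 to 1 for the difference and 2 to 3 between the pull-downs. Values near 0 turned sign in this way. In Cre+, Nefl ran from -0.052 to 0.11 and Vim from -0.60 to 0.45. Prph ran from -0.34 to 0.066 for the difference and from -0.26 to 0.14 between the pull-downs. Between the inputs, Nefl ran from -0.12 to 0.049, Prph from -0.053 to 0.15 and Vim from -0.069 to 0.074.

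A replicate block was fitted in Cre- alone, since the Cre+ columns were assigned as groups. With it 1446 genes and 3 members were called, Nefm at 1.29, Nefh at 1.35 and Ina at 1.81. Prph, lower in each Cre- pull-down than in the input of its number, was at -0.23 (FDR = 0.279). The deviations of same-numbered libraries correlated at 0.067, 0.028 and 0.124, which does not establish pairs, although each pull-down correlated best with the input of its own number. Ina is limited by depth, with 186 to 339 counts per library outside the Cre- pull-downs. The share of each member was also computed with the longest transcript, with Nefl at 52.9% in the Cre+ input.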
